A study of Mus musculus with 11 samples.

Results

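The genes described here encode the machinery that stores, docks, primes and fuses synaptic vesicles. They were given as a list of 42 gene symbols with no measured value in the rule, although earlier results of these data were known when the list was made. Each was read from array probe sets annotated with that symbol alone. Of the 42, 41 were found, out of 19938 genes with a single symbol. Vamp2, a vesicle SNARE, was left out because its probe set lists 2 symbols. All 41 passed the filter on low values and were among the 16527 genes tested.

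The data are 11 Affymetrix Mouse Gene 1.0 ST arrays hybridised with RNA of green fluorescent cells that were sorted from microdissected dentate gyrus of mice at postnatal day 35. PomcGFP (2 arrays) carries GFP for Pro-opiomelanocortin-alpha and is used as a reporter of newborn granule neurons. The Eomes gene, which encodes Tbr2 and is active in intermediate progenitors, holds the GFP of kiTbr2GFP (3 arrays) as a knock-in, and tgTbr2GFP (3 arrays) has it on a BAC transgene of Eomes. NesGFP (3 arrays) is a transgenic reporter of Nestin, whose filaments mark neural stem cells. All 4 lines therefore carry GFP, no cells without it are analysed here, and the labels name no treatment, sex or strain. Small numbers of cells were sorted from dorsal and ventral slices, and their RNA was amplified. GFP can outlast the activity of the promoter that drives it, so each line marks a population and not a single stage.

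At a synapse, synaptic vesicles are filled with glutamate by vesicular transporters, tethered at the active zone by large scaffold proteins, and primed by Munc13 and RIM proteins. SNARE proteins of vesicle and plasma membrane then zip together, and synaptotagmins trigger fusion when calcium enters. In the dentate gyrus, stem cells give rise to intermediate progenitors and these to granule neurons, which acquire glutamatergic mossy fibre terminals as they mature.

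Values are log2 and were summarised by the authors with RMA, so a difference of 1 is a 2-fold change. A probe set was called low when it stood below the 25th percentile of its array, which ranged over 5.9 to 6.2. Differences were tested with limma over all 16527 genes, with Benjamini-Hochberg adjustment and a threshold of 0.05, and errors of differences are standard errors from that fit. The number of arrays limits the precision, most of all for PomcGFP. The labels do not state whether replicate arrays stem from different animals, so a p-value reflects just the scatter among arrays, which may be technical.

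Lists of cell type markers were read on the same arrays to show what else the sorted populations held. The mean level of 10 mature neuron markers was 10.00 and 9.76 on the PomcGFP arrays, 7.89 to 8.20 in kiTbr2GFP, 8.57 to 9.30 in tgTbr2GFP and 8.61 to 8.79 in NesGFP. Markers of dividing cells were highest in kiTbr2GFP, at 8.85 to 9.01, followed by tgTbr2GFP at 7.79 to 7.98, PomcGFP at 6.80 and 6.93 and NesGFP at 6.82 to 7.02. NesGFP arrays stood apart in non-neuronal lists: endothelial markers averaged 10.01 to 10.18 there and 6.39 to 7.46 on the other 8 arrays, astrocyte markers 10.14 to 10.30 against 7.99 to 9.01, and oligodendrocyte precursor markers 9.64 to 9.76 against 7.26 to 7.97. The first tgTbr2GFP array differed from its replicates in oligodendrocyte markers, at 9.03 against 7.11 and 7.44.

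**Figure D1:**
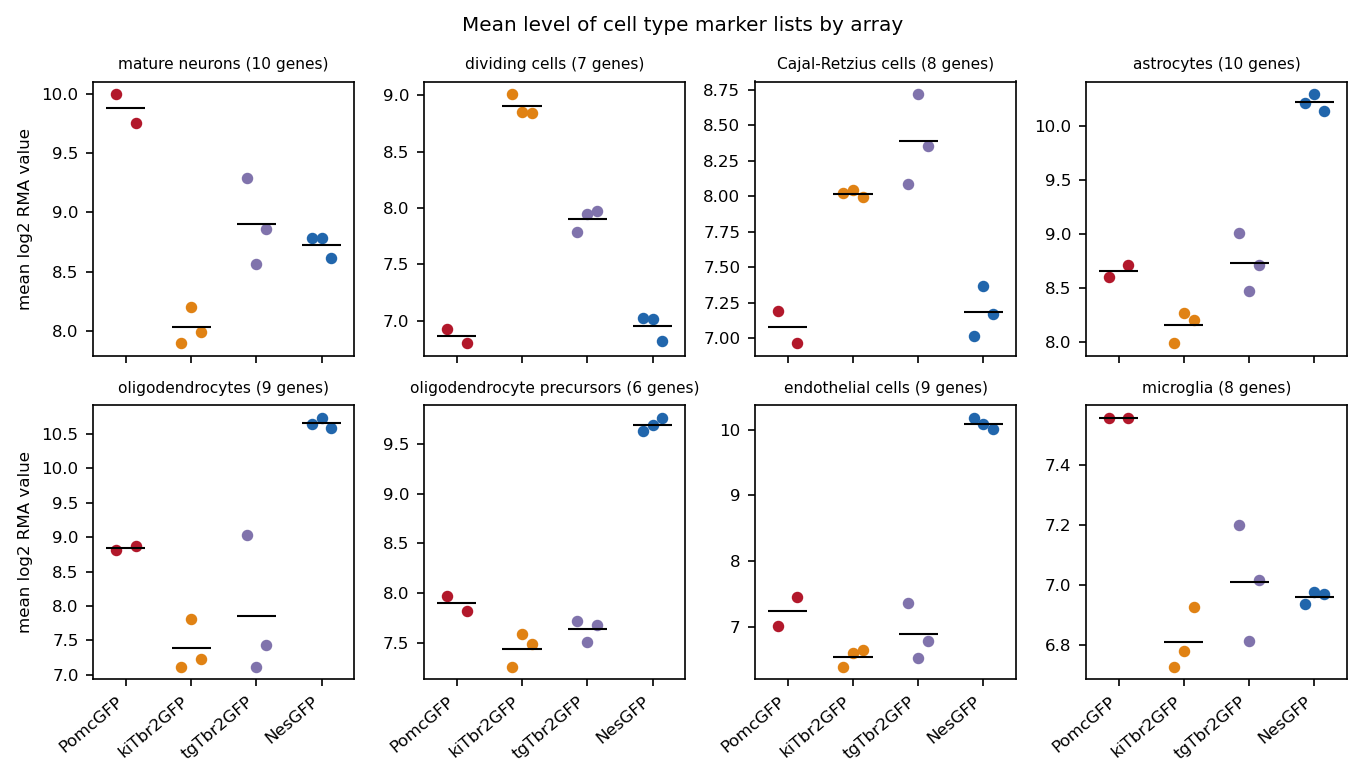
Mean log2 RMA value of the genes of each cell type marker list (y axis, 1 panel per list) on each array (points), by reporter line (x axis), with the line's mean as a bar. Mature neuron markers were highest in PomcGFP, dividing-cell markers in kiTbr2GFP, Cajal-Retzius markers in tgTbr2GFP, and astrocyte, oligodendrocyte lineage and endothelial markers in NesGFP.

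Averaged over the arrays of a line, 22 of the 41 vesicle genes (53.7%) had their highest value in PomcGFP, where 24.05% of all genes tested had theirs. Another 4 were highest in kiTbr2GFP (21.9% of all genes), 6 in tgTbr2GFP (11.8%) and 9 in NesGFP (42.3%). The lowest value fell in PomcGFP for 1 gene, Rab3b (18.9% of all genes), in kiTbr2GFP for 17 (22.4%), in tgTbr2GFP for 4 (18.9%) and in NesGFP for 19 (39.8%). The counts use line means only and carry no test. In sorted populations, fewer cells that express a gene and less RNA of it per cell cannot be told apart.

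**Figure D2:**
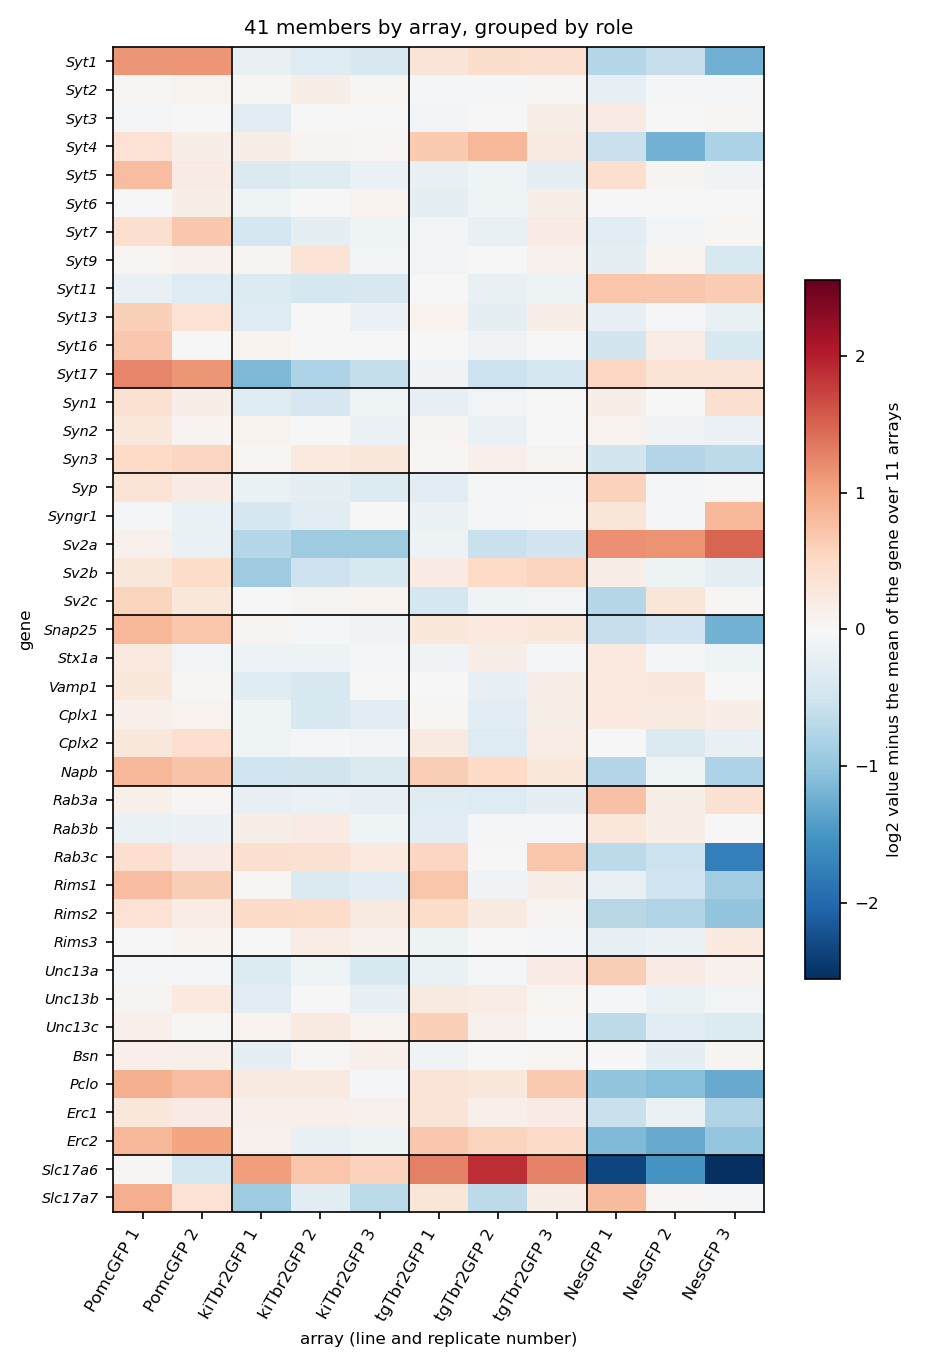
Log2 RMA value of each of the 41 genes (rows, grouped by role) on each of the 11 arrays (columns), as the difference from that gene's mean over all arrays. The PomcGFP columns are red for Syt1, Syt17, Snap25, Napb, Pclo and Erc2, and the NesGFP columns are blue for these genes except Syt17 and red for Sv2a and Syt11.

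Against the mean of both Tbr2 lines, PomcGFP cells had higher RNA of 8 genes. These were the synaptotagmins Syt1, Syt5, Syt7, Syt13 and Syt17, the SNARE recycling factor Napb, and the active zone scaffolds Pclo and Erc2. Of all genes tested, 2.0% were higher in this comparison. Slc17a6, the vesicular glutamate transporter VGLUT2, was the 1 gene that was lower, among 1.73% of all genes. The higher genes were 5 of the 12 synaptotagmins, 2 of the 4 scaffolds and 1 of the 6 SNARE proteins and partners. The calls rested on the average of both lines: 12 of the 41 were higher than in kiTbr2GFP alone, among 2.90% of all genes, but against tgTbr2GFP alone Syt17 was the 1 higher gene, among 0.545%, and the other 7 did not pass (adjusted p = 0.0667 for Syt1 to 0.699 for Napb). The median difference of the 41 genes was 0.28, and that of all genes 0.02. Without either PomcGFP array, which leaves 1 array in that line, fewer of the 41 were called, and so were fewer of all genes. Syt17 was the 1 gene of the 9 called under every alternative setting tried.

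Against NesGFP, the mean of both Tbr2 lines had 13 of the 41 genes higher, among 19.8% of all genes tested, and 10 lower, among 29.1%. The higher ones included Slc17a6, Pclo, Erc2, Rab3c, Syt4 and Rims2, and the lower ones Sv2a, Syt17, Syt11 and Rab3a. The median difference of the 41 was 0.05, and that of all genes -0.02. Its sign was not stable: it was -0.0015 without the second NesGFP array, 0.09 without the third, and -0.02 with arrays centred on their medians. The split between directions moved with the scaling of the arrays: cyclic loess gave 16 higher and 4 lower, with 25.8% and 25.4% of all genes, and median centring 12 higher and 12 lower, with 16.7% and 33.4%. Of the 23 genes called, 14 kept their call under every alternative, and these include all of the 10 just named. By role, 3 of 4 active zone scaffolds were higher and 0 lower, of which Erc1 passed only on the probe set that stood for it. Of 6 Rab3 and RIM genes 3 were higher and 1 lower, and of 5 vesicle membrane proteins 0 were higher and 3 lower. Unc13a, counted as lower, was higher on another of its probe sets.

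PomcGFP against NesGFP gave 17 higher genes, among 15.9% of all genes, and 2 lower, among 24.0%. Erc2, Pclo, Syt1, Slc17a6 and Snap25 led the higher ones, and Sv2a and Syt11 were the lower ones. The median of the 41 was 0.38, and that of all genes 0.005. With arrays centred on their medians, 15 were higher and 5 lower, among 12.9% and 27.9% of all genes. This comparison shares its PomcGFP arrays with the first and its NesGFP arrays with the second, so the 3 sets of values are not independent.

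Between the Tbr2 reporters, no vesicle gene passed as higher in kiTbr2GFP, where 0.436% of all genes did, and 3 passed as lower, Sv2b, Napb and Erc2, where 0.684% of all genes did. The median difference of the 41 was -0.17, and that of all genes 0.02. It was -0.28 without the second tgTbr2GFP array and -0.10 without the first kiTbr2GFP array. At an unadjusted p under the same threshold, 0 vesicle genes were higher and 10 lower in kiTbr2GFP, among 3.35% and 5.86% of all genes.

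**Figure D3:**
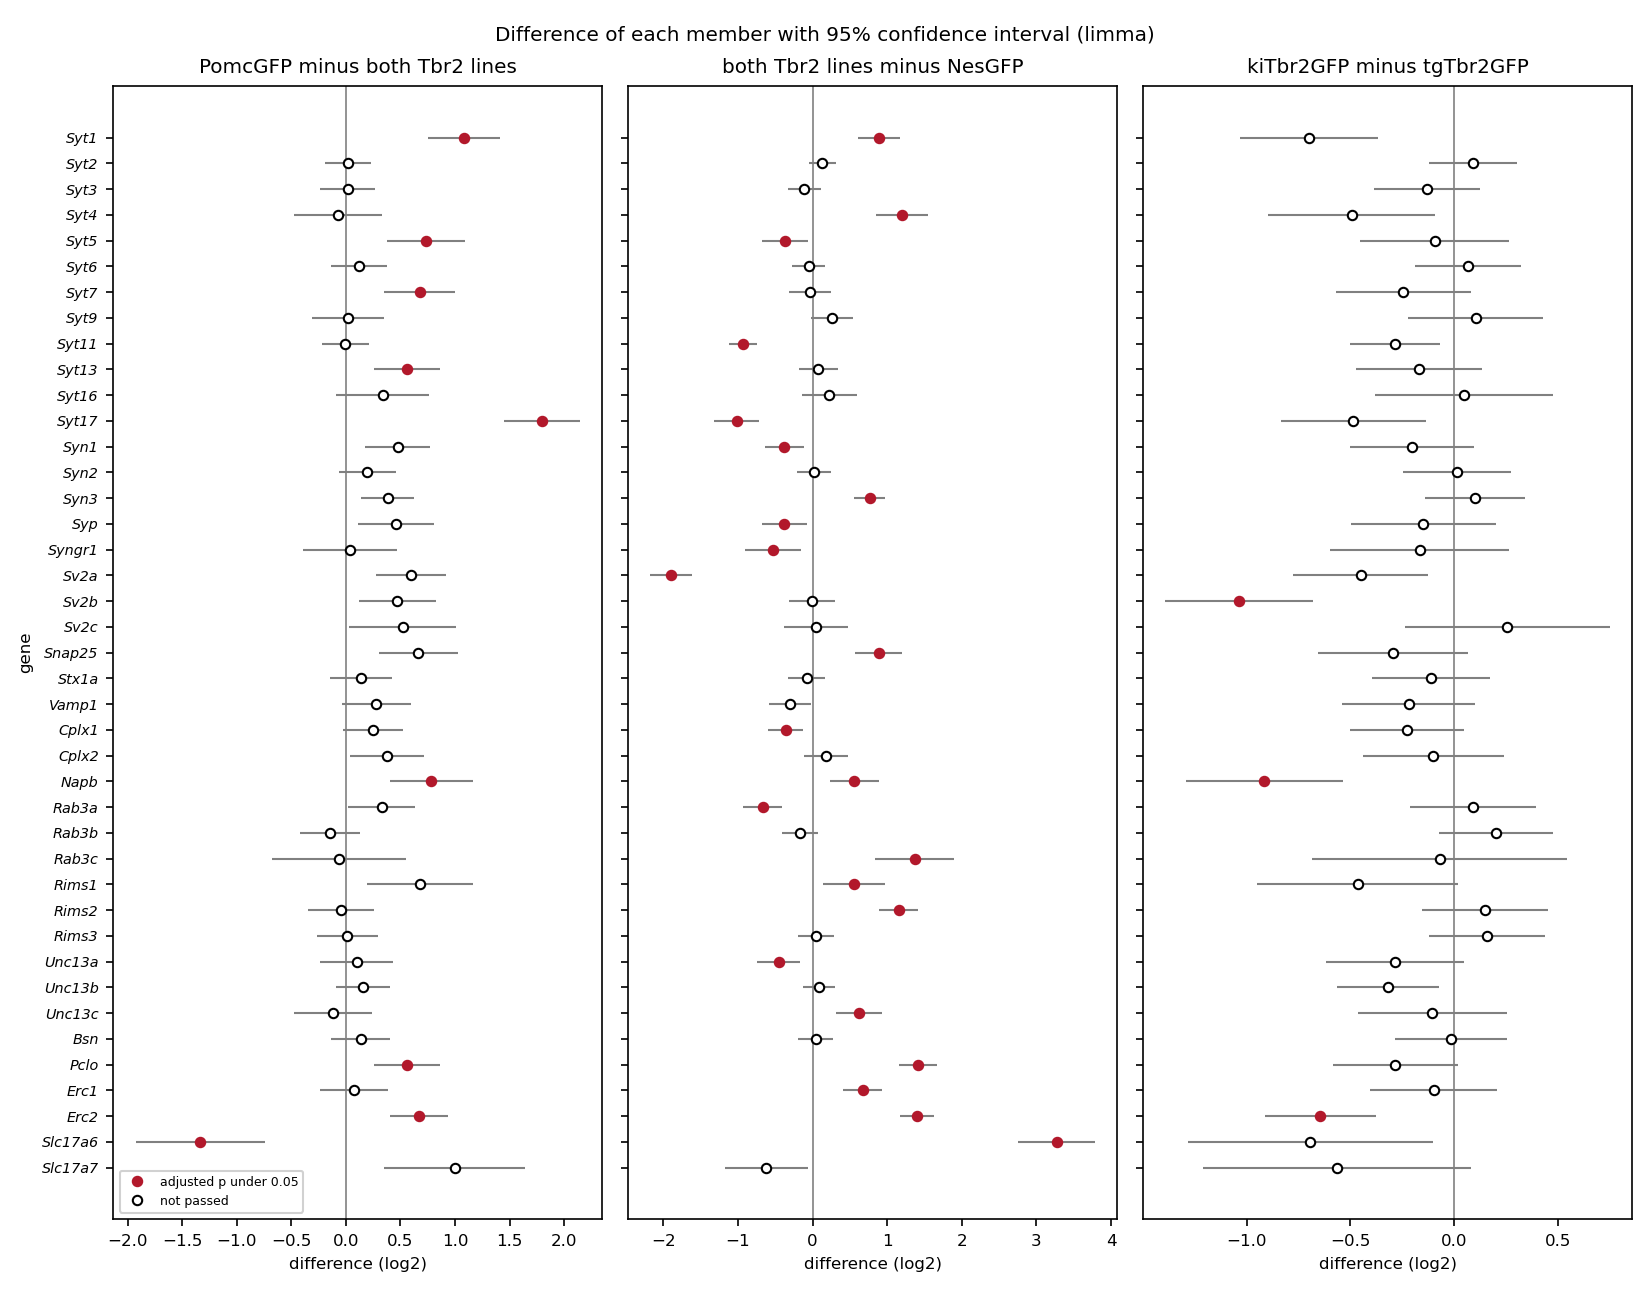
Difference (x axis, log2) of each of the 41 genes (y axis) with its 95% confidence interval, for PomcGFP minus the mean of both Tbr2 lines, the mean of both Tbr2 lines minus NesGFP, and kiTbr2GFP minus tgTbr2GFP; filled points passed at an adjusted p under 0.05. Most points lie right of 0 in the first panel, where 34 of 41 are positive, and left of 0 in the third, where 11 are.

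Promoters are shown for Syt1, Pclo and Erc2, which shared an order over the lines, and for Slc17a6 and Slc17a7, which did not. RefSeq promoters on GRCm38.p6 were found for 33 of the 42 listed genes, 43 promoters in all, each running from 250 bases before a start to 50 after it. They were searched on both strands for TGACGTCA, the palindromic cyclic AMP response element, and for 2 parts of RE1, the element bound by the repressor REST: its left part TTCAGCACC and its right part GGACAG. The 250 bases before the start are printed 5′ to 3′ on the gene's strand, and capitals mark the right RE1 part on either strand. Syt1 and Slc17a6 have 2 starts each in the table, of which the first is shown.
Syt1, chr10:109010976-109011225, minus strand: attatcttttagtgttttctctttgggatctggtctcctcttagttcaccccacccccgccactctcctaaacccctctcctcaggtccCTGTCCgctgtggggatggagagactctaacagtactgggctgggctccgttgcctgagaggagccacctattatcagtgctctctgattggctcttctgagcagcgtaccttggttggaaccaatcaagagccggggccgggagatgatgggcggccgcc
Pclo, chr5:14514668-14514917, plus strand: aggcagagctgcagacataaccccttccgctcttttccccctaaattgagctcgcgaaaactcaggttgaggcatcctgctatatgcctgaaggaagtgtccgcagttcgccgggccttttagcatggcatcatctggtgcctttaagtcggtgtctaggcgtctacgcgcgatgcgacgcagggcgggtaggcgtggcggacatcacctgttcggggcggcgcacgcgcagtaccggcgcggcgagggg
Erc2, chr14:27622157-27622406, plus strand: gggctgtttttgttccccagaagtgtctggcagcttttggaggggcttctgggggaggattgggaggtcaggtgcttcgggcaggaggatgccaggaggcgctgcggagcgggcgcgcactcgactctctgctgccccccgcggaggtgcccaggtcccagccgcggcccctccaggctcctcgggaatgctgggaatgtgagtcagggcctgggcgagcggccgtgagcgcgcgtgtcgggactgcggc
Slc17a6, chr7:51621580-51621829, plus strand: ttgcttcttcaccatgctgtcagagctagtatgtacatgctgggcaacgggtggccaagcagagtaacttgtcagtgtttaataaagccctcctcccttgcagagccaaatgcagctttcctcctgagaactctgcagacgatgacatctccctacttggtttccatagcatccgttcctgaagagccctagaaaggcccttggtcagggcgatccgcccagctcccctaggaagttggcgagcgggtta
Slc17a7, chr7:45163671-45163920, plus strand: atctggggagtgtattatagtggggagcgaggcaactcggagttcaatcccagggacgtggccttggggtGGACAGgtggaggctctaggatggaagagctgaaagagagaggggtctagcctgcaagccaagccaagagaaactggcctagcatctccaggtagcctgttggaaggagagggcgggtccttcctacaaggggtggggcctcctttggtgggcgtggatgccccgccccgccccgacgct
None of these 5 stretches held TGACGTCA or TTCAGCACC. Their GC content was 56.4% for Syt1, 61.2% for Pclo, 69.6% for Erc2, 53.2% for Slc17a6 and 61.2% for Slc17a7. Median GC was 62.3% over the 43 promoters and 52.7% over all 32851 promoters of the table, and the median ratio of observed to expected CpG was 0.635 against 0.384.

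The left RE1 part lay in the promoters of 2 of the 33 genes, Syn1 and Unc13a, and in those of 0.433% of all 27025 genes of the table. Both sites are shown because Syn1 and Unc13a differ from the rest of the 33 in holding it, with the RE1 parts in capitals.
Syn1, chrX:20921127-20921150, minus strand: TTCAGCACCgcggtcagagccttc
Unc13a, chr8:71671727-71671750, plus strand: TTCAGCACCgggggcgcGGACAGc
The Syn1 site spans positions -232 to -209 relative to the start. The Unc13a site lies 8 to 31 bases after the start, is printed on the strand opposite to the gene, and also holds the right part. TGACGTCA lay in the promoter of 1 gene, Syn1, against 2.03% of all genes, and the right RE1 part in those of 10 genes, against 24.7%. These matches are of letters in a window and say nothing of binding.

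Among the synaptotagmins, Syt1, the fast trigger of synchronous release at forebrain synapses, separated all 4 lines. Its values were 10.54 and 10.52 on the PomcGFP arrays, 9.21, 9.08 and 9.00 on the kiTbr2GFP arrays, 9.73, 9.85 and 9.80 on the tgTbr2GFP arrays and 8.68, 8.81 and 8.18 on the NesGFP arrays. No line overlapped another. Syt1 was higher in PomcGFP than in the Tbr2 lines by 1.08 ± 0.15 (adjusted p = 0.00213), and higher in the Tbr2 lines than in NesGFP by 0.89 ± 0.13 (adjusted p = 0.000162). The difference of -0.70 between kiTbr2GFP and tgTbr2GFP just missed the threshold (adjusted p = 0.0554). PomcGFP against tgTbr2GFP alone, a difference of 0.73, also missed it (adjusted p = 0.0667).

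Syt17, a synaptotagmin relative without a membrane span, ran differently. It stood at 9.97 and 9.85 on the PomcGFP arrays, 7.57, 7.92 and 8.11 on the kiTbr2GFP arrays, 8.63, 8.16 and 8.27 on the tgTbr2GFP arrays and 9.25, 9.08 and 9.07 on the NesGFP arrays. PomcGFP lay above every other array, NesGFP came next, and kiTbr2GFP was lowest. The difference was 1.80 ± 0.16, or 3.48-fold, between PomcGFP and the Tbr2 lines (adjusted p = 0.000143) and -1.02 ± 0.14 between the Tbr2 lines and NesGFP (adjusted p = 8.52e-05). PomcGFP was also above NesGFP, by 0.78 ± 0.18 (adjusted p = 0.0047).

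Syt4 and Syt11 are synaptotagmins whose first C2 domain lacks a calcium-binding residue, and they moved in opposite directions. Syt4 averaged 7.46 ± 0.14 in PomcGFP (SD, n = 2), 7.29 ± 0.05 in kiTbr2GFP, 7.78 ± 0.32 in tgTbr2GFP and 6.34 ± 0.32 in NesGFP (SD, n = 3 each). It was higher than in NesGFP in the Tbr2 lines, by 1.19 ± 0.16 (adjusted p = 7.71e-05), and in PomcGFP, by 1.12 ± 0.20 (adjusted p = 0.00119). Syt11 stood at 10.50 and 10.36 in PomcGFP, 10.35, 10.24 and 10.29 in kiTbr2GFP, 10.69, 10.50 and 10.55 in tgTbr2GFP and 11.40, 11.38 and 11.35 in NesGFP. The NesGFP arrays lay clear of the other 8, and Syt11 fell by 0.94 in the Tbr2 lines (adjusted p = 3.97e-06) and by 0.95 in PomcGFP (adjusted p = 5.25e-05) relative to them.

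Syt7, a slow sensor of asynchronous release, Syt5 and Syt13 were modestly higher in PomcGFP. Syt7 read 8.06 and 8.33 in PomcGFP, against 7.21 to 7.87 over the 6 Tbr2 arrays, a difference of 0.68 ± 0.15 (adjusted p = 0.027). Syt5 differed by 0.73 ± 0.16 (adjusted p = 0.0296) although its PomcGFP arrays lay far from each other at 8.53 and 7.97, and Syt13 by 0.56 ± 0.14 (adjusted p = 0.0475). Syt7 and Syt13 were also higher in PomcGFP than in NesGFP, by 0.64 ± 0.17 (adjusted p = 0.00925, 0.104 without the second PomcGFP array) and 0.63 ± 0.15 (adjusted p = 0.00669, 0.0782 without the first). Against the Tbr2 lines, leaving out single arrays ended the call of Syt5 in 6 of 11 cases, of Syt7 in 5 and of Syt13 in 10. Syt5 was also lower in the Tbr2 lines than in NesGFP, with a difference of -0.37 ± 0.14 (adjusted p = 0.0474), a call that leaving out an array ended in 8 of 11 cases. Syt2, Syt3, Syt6, Syt9 and Syt16 passed in none of the 4 comparisons. Line means of Syt2, Syt3 and Syt6 lay within a range of 6.96 to 7.14, 6.89 to 7.07 and 6.71 to 6.86, and those of Syt9 and Syt16 within 7.71 to 8.02 and 7.20 to 7.76.

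**Figure D4:**
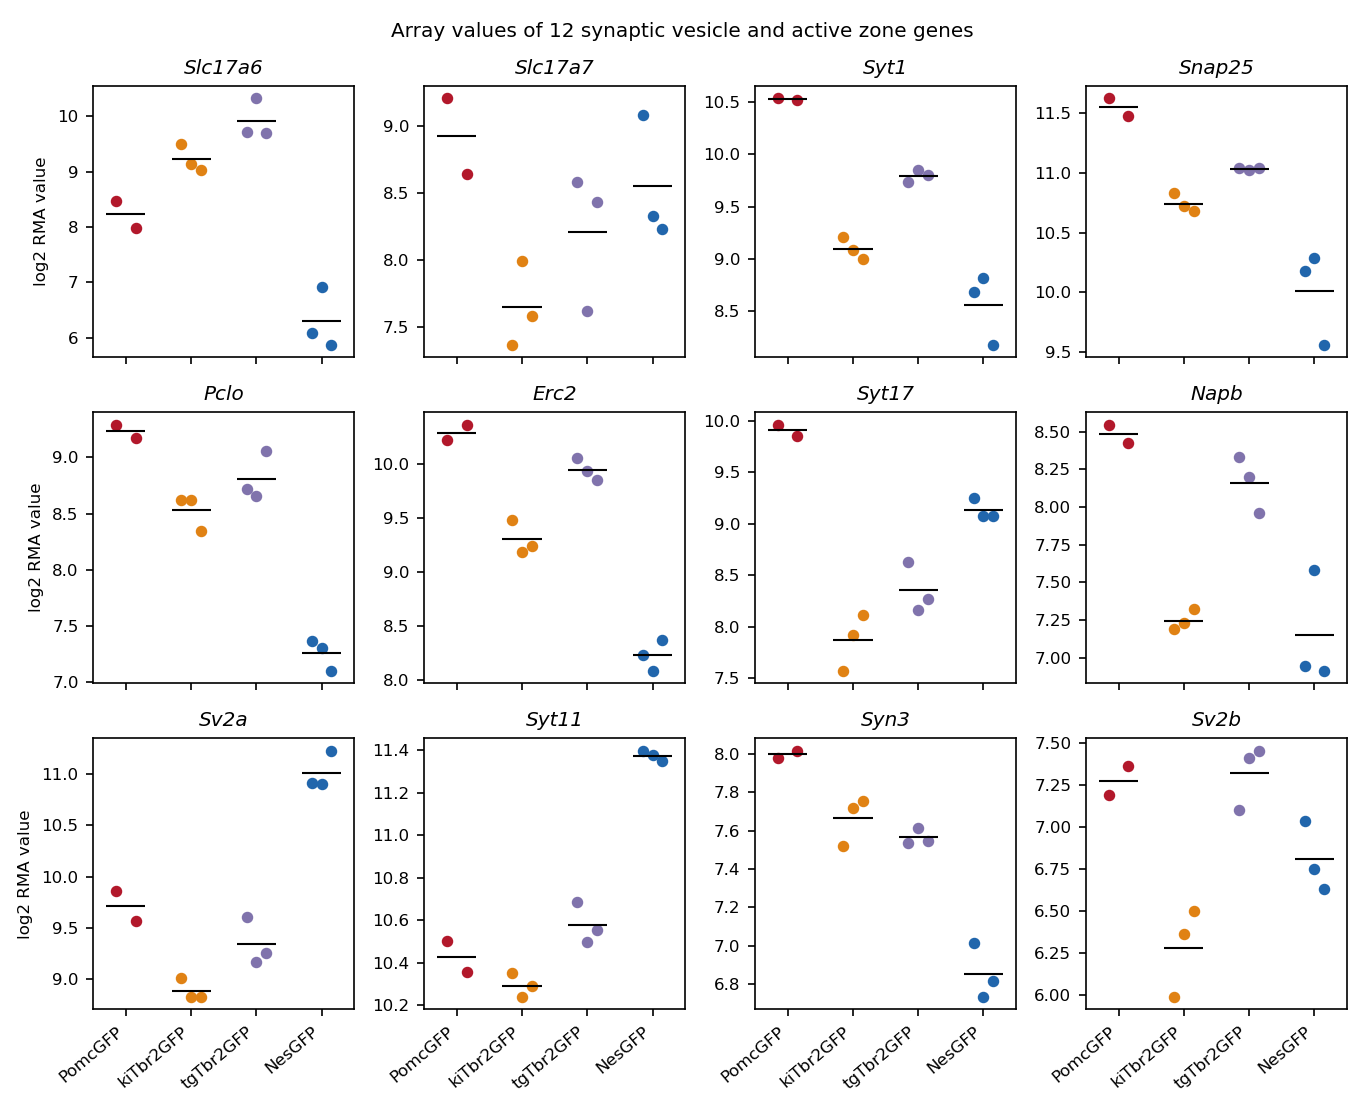
Log2 RMA value (y axis, scaled to each gene) of 12 vesicle and active zone genes on each array (points), by reporter line (x axis), with the line's mean as a bar. Syt1, Pclo and Erc2 step down from PomcGFP over tgTbr2GFP and kiTbr2GFP to NesGFP, Slc17a6 peaks in tgTbr2GFP, and Sv2a and Syt11 peak in NesGFP.

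Of the SNARE proteins and their partners, Snap25, the plasma membrane SNARE of neurons, showed an order like that of Syt1. It read 11.63 and 11.48 on the PomcGFP arrays, 10.83, 10.72 and 10.68 on the kiTbr2GFP arrays, 11.04, 11.02 and 11.04 on the tgTbr2GFP arrays and 10.18, 10.29 and 9.56 on the NesGFP arrays. Every PomcGFP and Tbr2 array lay above every NesGFP array. Snap25 was higher in the Tbr2 lines than in NesGFP by 0.88 ± 0.14 (adjusted p = 0.000332), and higher in PomcGFP than in NesGFP by 1.55 ± 0.18 (adjusted p = 6.19e-05). Between PomcGFP and the Tbr2 lines its difference was 0.66 ± 0.16 and did not pass (adjusted p = 0.0505), although 10 of 23 alternatives took it past the threshold.

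Napb, the brain form of SNAP that brings NSF to used SNARE complexes, read 8.55 and 8.42 on the PomcGFP arrays, 7.19, 7.23 and 7.32 on the kiTbr2GFP arrays, 8.33, 8.20 and 7.96 on the tgTbr2GFP arrays and 6.95, 7.58 and 6.91 on the NesGFP arrays. The kiTbr2GFP arrays lay inside the NesGFP range and the tgTbr2GFP arrays close to PomcGFP. It was higher in PomcGFP than in the Tbr2 lines by 0.78 ± 0.17 (adjusted p = 0.0281), a call lost in 7 of 11 cases when an array was left out, and higher in the Tbr2 lines than in NesGFP by 0.56 ± 0.15 (adjusted p = 0.00909). Taken alone, tgTbr2GFP differed from NesGFP by 1.01 (adjusted p = 0.000619), and kiTbr2GFP by 0.10 (adjusted p = 0.671).

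Each of the complexins, which clamp and assist SNARE zippering, passed in a single comparison. Cplx1 averaged 8.56 ± 0.14 in kiTbr2GFP, 8.79 ± 0.22 in tgTbr2GFP and 9.04 ± 0.05 in NesGFP (SD, n = 3 each), and was lower in the Tbr2 lines by 0.36 (adjusted p = 0.0162). Cyclic loess ended that call (adjusted p = 0.236). Cplx2 passed only in PomcGFP against NesGFP, with a difference of 0.55 ± 0.17 (adjusted p = 0.0259), which was lost without either PomcGFP array (adjusted p = 0.0644 and 0.164) and without the second NesGFP array (adjusted p = 0.0741). Stx1a, the syntaxin that pairs with Snap25, and Vamp1, a vesicle SNARE, passed in none of the 4 comparisons. Stx1a line means lay at 7.57 to 7.77 and those of Vamp1 at 7.18 to 7.59.

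The vesicle membrane proteins and synapsins included the largest difference in favour of NesGFP. Sv2a, a vesicle glycoprotein and the binding site of the antiepileptic drug levetiracetam, read 9.85 and 9.57 on the PomcGFP arrays, 9.01, 8.83 and 8.83 on the kiTbr2GFP arrays, 9.60, 9.16 and 9.26 on the tgTbr2GFP arrays and 10.91, 10.89 and 11.22 on the NesGFP arrays. NesGFP arrays lay above the other 8 by more than the whole spread within any line. Sv2a was lower in the Tbr2 lines by 1.89, or 3.72-fold (adjusted p = 4.27e-07), and lower in PomcGFP by 1.30, or 2.46-fold (adjusted p = 9.49e-05). Its difference of 0.59 ± 0.15 between PomcGFP and the Tbr2 lines did not pass (adjusted p = 0.0501).

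Its relative Sv2b did not follow it. Sv2b stood at 7.19 and 7.36 on the PomcGFP arrays, 5.99, 6.36 and 6.50 on the kiTbr2GFP arrays, 7.10, 7.41 and 7.45 on the tgTbr2GFP arrays and 7.04, 6.75 and 6.63 on the NesGFP arrays, with 1 kiTbr2GFP value below the low mark. The mean of the Tbr2 lines differed from NesGFP by only -0.01 ± 0.14, and the lines went opposite ways: kiTbr2GFP was lower than NesGFP by 0.52 (adjusted p = 0.0204) and tgTbr2GFP higher by 0.51 (adjusted p = 0.0241). Sv2c line means lay at 7.05 to 7.70, and it passed in none of the 4 comparisons.

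Syp, or synaptophysin, an abundant vesicle membrane protein, and Syngr1, of the synaptogyrin family, were lower in the Tbr2 lines than in NesGFP. Syp differed by -0.38 ± 0.14 (adjusted p = 0.0379) and Syngr1 by -0.53 ± 0.17 (adjusted p = 0.0229). Leaving out an array ended the call of Syp in 6 of 11 cases. Cyclic loess ended both calls (adjusted p = 0.141 and 0.204). Syngr1 values of the Tbr2 lines and NesGFP overlapped, and without the third NesGFP array its adjusted p was 0.0987.

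Synapsins tether vesicles to each other in the reserve pool, and of the 3 family members 1 was higher, 1 lower and 1 passed nowhere. Syn3, expressed early in neuronal development, read 7.98 and 8.02 on the PomcGFP arrays, 7.52, 7.72 and 7.76 on the kiTbr2GFP arrays, 7.53, 7.61 and 7.55 on the tgTbr2GFP arrays and 7.01, 6.73 and 6.81 on the NesGFP arrays. All PomcGFP and Tbr2 arrays lay above all NesGFP arrays. Syn3 was higher in the Tbr2 lines than in NesGFP by 0.76 ± 0.10 (adjusted p = 4.8e-05) and in PomcGFP by 1.15 ± 0.12 (adjusted p = 3.02e-05). Syn1 was lower in the Tbr2 lines by 0.38 (adjusted p = 0.0194), which cyclic loess ended (adjusted p = 0.205) as did leaving out the third NesGFP array (adjusted p = 0.0822). Syn2 line means lay at 8.79 to 9.01, and it passed nowhere.

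Rab3 proteins are GTPases of the vesicle membrane that bind RIM proteins at the active zone. Rab3a and Rab3c went opposite ways. Rab3a read 7.66 and 7.56 in PomcGFP, 7.31, 7.35 and 7.32 in kiTbr2GFP, 7.22, 7.19 and 7.30 in tgTbr2GFP and 8.27, 7.67 and 7.91 in NesGFP, and was lower in the Tbr2 lines than in NesGFP by 0.67 (adjusted p = 0.000685). Rab3c read 8.23 and 8.01 in PomcGFP, 8.20, 8.19 and 8.06 in kiTbr2GFP, 8.35, 7.81 and 8.50 in tgTbr2GFP and 7.14, 7.26 and 6.05 in NesGFP. NesGFP was lowest and most scattered for Rab3c, and the third of its arrays was the lowest of all. The Tbr2 lines were higher by 1.37 ± 0.24 (adjusted p = 0.000623) and PomcGFP by 1.31 ± 0.31 (adjusted p = 0.00612, 0.0542 without the first PomcGFP array). Rab3b passed in none of the 4 comparisons, with line means of 6.45 to 6.76.

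Rims2 and Rims1, the RIM scaffolds that link Rab3, Munc13 and calcium channels, were higher outside NesGFP. Rims2 averaged 8.80 ± 0.13 in PomcGFP (SD, n = 2), 8.93 ± 0.15 in kiTbr2GFP, 8.78 ± 0.20 in tgTbr2GFP and 7.70 ± 0.16 in NesGFP (SD, n = 3 each). The first 3 lines overlapped each other and lay above NesGFP, by 1.15 ± 0.12 for the Tbr2 lines (adjusted p = 1.12e-05) and 1.11 ± 0.15 for PomcGFP (adjusted p = 0.000189). Rims1 was higher than in NesGFP by 1.23 ± 0.25 in PomcGFP (adjusted p = 0.00208) and by 0.55 ± 0.19 in the Tbr2 lines (adjusted p = 0.0317), where kiTbr2GFP alone did not pass (adjusted p = 0.26). The last call was lost without the first kiTbr2GFP array and without the second or the third NesGFP array (highest adjusted p = 0.135). Rims3, a short RIM, passed nowhere and had line means of 7.50 to 7.66.

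Munc13 proteins, encoded by the Unc13 genes, make docked vesicles ready to fuse. For Unc13a the answer depended on which probe set was read. By the rule on the highest mean it was represented by a probe set that read 9.12 and 9.12 in PomcGFP, 8.81, 9.05 and 8.77 in kiTbr2GFP, 9.00, 9.12 and 9.37 in tgTbr2GFP and 9.78, 9.37 and 9.28 in NesGFP. The 2 PomcGFP arrays and the second tgTbr2GFP array held the identical value of 9.1183. This probe set was lower in the Tbr2 lines than in NesGFP by 0.46 (adjusted p = 0.013, 0.0694 without the first NesGFP array). The probe set with the next highest mean was higher in the Tbr2 lines by 0.79 (adjusted p = 0.00331 in a fit over all probe sets) and in PomcGFP by 1.43 (adjusted p = 0.000553). The other one differed by 0.11 in the Tbr2 lines (adjusted p = 0.404) and by 0.46 in PomcGFP (adjusted p = 0.0173). No direction is therefore given for Unc13a as a gene. The counts of genes still include it by the probe set with the highest mean, as lower in the Tbr2 lines and as highest in NesGFP.

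Unc13c was higher in the Tbr2 lines than in NesGFP by 0.62 ± 0.14 (adjusted p = 0.0034). Its 4 other probe sets past the filter differed in the same direction, by 0.33 to 0.64, and 3 of the 4 passed. PomcGFP was higher than NesGFP by 0.50 ± 0.18, a narrow call (adjusted p = 0.0467) that was lost in 14 of 20 alternatives. The first tgTbr2GFP array stood highest on the probe set that represents Unc13c, at 7.42. It was also highest on 3 of the 4 other probe sets, at 7.76, 7.33 and 7.19. Unc13b line means lay at 7.22 to 7.54, and it passed in none of the 4 comparisons.

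**Figure D5:**
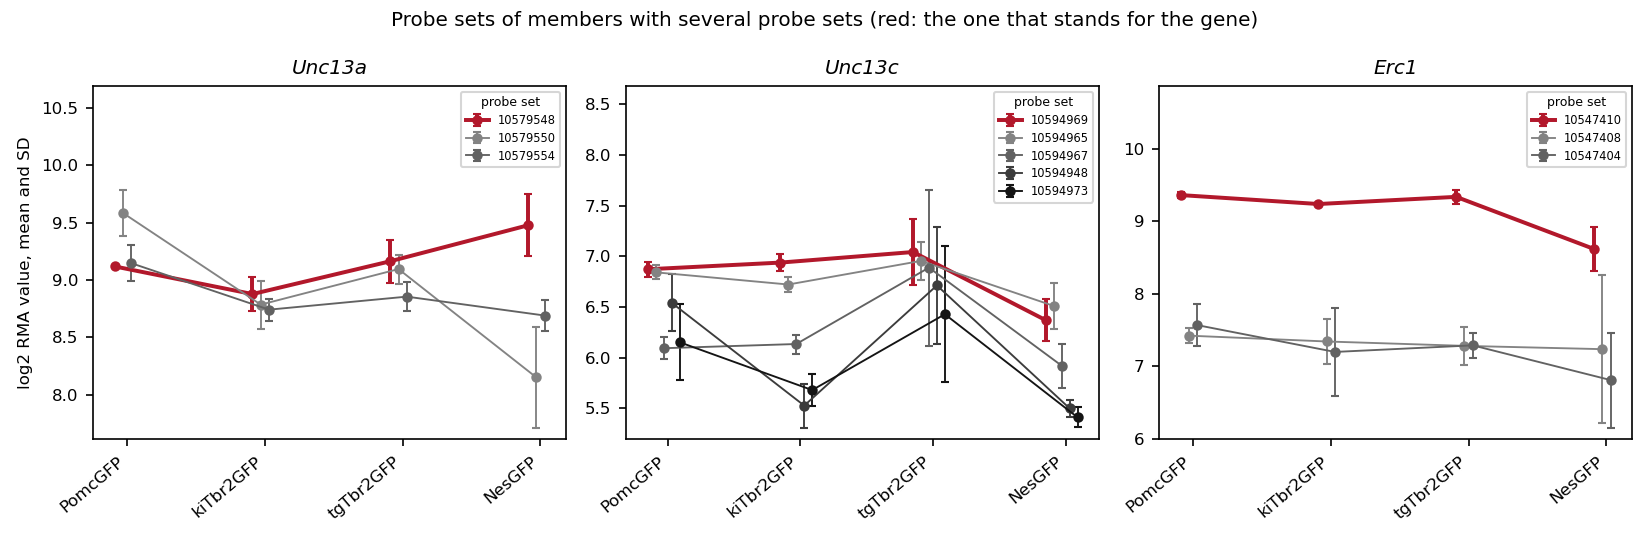
Mean log2 RMA value with its SD (y axis) by reporter line (x axis) for each probe set past the filter of Unc13a, Unc13c and Erc1, the genes with several probe sets; the red line is the probe set that stands for the gene. The red Unc13a probe set is highest in NesGFP, while the other 2 are highest in PomcGFP.

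Of the 4 active zone scaffolds, Pclo, Erc2 and Erc1 were higher in PomcGFP and in the Tbr2 lines than in NesGFP. For Erc1 this held only on the probe set that stood for the gene. Pclo, or Piccolo, a giant scaffold that assembles the active zone with Bassoon, read 9.29 and 9.17 on the PomcGFP arrays, 8.62, 8.62 and 8.34 on the kiTbr2GFP arrays, 8.72, 8.66 and 9.05 on the tgTbr2GFP arrays and 7.37, 7.31 and 7.10 on the NesGFP arrays. NesGFP lay well below every other array, and PomcGFP above all Tbr2 arrays. Pclo was higher in the Tbr2 lines than in NesGFP by 1.41 ± 0.12, or 2.66-fold (adjusted p = 2.21e-06), and in PomcGFP than in NesGFP by 1.97 ± 0.15 (adjusted p = 3.36e-06). Its difference of 0.56 ± 0.14 between PomcGFP and the Tbr2 lines passed narrowly (adjusted p = 0.0458) and was lost in 8 of 11 cases when an array was left out.

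Erc2, or CAST, which binds RIM, Bassoon and Piccolo, read 10.22 and 10.37 on the PomcGFP arrays, 9.48, 9.18 and 9.24 on the kiTbr2GFP arrays, 10.06, 9.93 and 9.85 on the tgTbr2GFP arrays and 8.23, 8.08 and 8.37 on the NesGFP arrays. No line overlapped another. It differed by 0.67 ± 0.12 between PomcGFP and the Tbr2 lines (adjusted p = 0.0103), a call that was lost without either PomcGFP array, and by 1.40 ± 0.11 between the Tbr2 lines and NesGFP (adjusted p = 9.93e-07). Erc1, its more widely expressed relative, was higher than in NesGFP in the Tbr2 lines by 0.67 ± 0.12 (adjusted p = 0.000742) and in PomcGFP by 0.74 ± 0.16 (adjusted p = 0.00286). A second Erc1 probe set differed by 0.08 in the Tbr2 lines (adjusted p = 0.874) and by 0.19 in PomcGFP (adjusted p = 0.767). The third differed by 0.43 in the Tbr2 lines (adjusted p = 0.249) and by 0.76 in PomcGFP (adjusted p = 0.139), so neither passed. Bsn, or Bassoon, passed in none of the 4 comparisons, with line means of 7.53 to 7.71.

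The vesicular glutamate transporters load vesicles, and Slc17a6 and Slc17a7 ran in different orders. Slc17a6, or VGLUT2, which many neurons express early in development, read 8.47 and 7.99 on the PomcGFP arrays, 9.50, 9.14 and 9.02 on the kiTbr2GFP arrays, 9.71, 10.32 and 9.70 on the tgTbr2GFP arrays and 6.09, 6.92 and 5.88 on the NesGFP arrays, with 1 NesGFP value below the low mark. NesGFP, PomcGFP and the Tbr2 lines did not overlap. Slc17a6 had the largest difference of all 41 genes, 3.27 ± 0.23 or 9.65-fold between the Tbr2 lines and NesGFP (adjusted p = 6.54e-07). PomcGFP was higher than NesGFP by 1.93 ± 0.30 (adjusted p = 0.000398) and lower than the Tbr2 lines by 1.34, or 2.53-fold (adjusted p = 0.0184). The last call was lost without either PomcGFP array (adjusted p = 0.0781 and 0.256) and against kiTbr2GFP alone (adjusted p = 0.0995).

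Markers of Cajal-Retzius cells, early-born glutamatergic neurons of the marginal zone, were also highest in the Tbr2 lines. Their mean level over 8 genes was 7.20 and 6.97 in PomcGFP, 7.99 to 8.04 in kiTbr2GFP, 8.08 to 8.72 in tgTbr2GFP and 7.01 to 7.37 in NesGFP. Reln, the secreted protein that defines these cells, read 8.31 and 7.55 in PomcGFP, 10.15, 10.28 and 9.99 in kiTbr2GFP, 10.59, 11.33 and 10.92 in tgTbr2GFP and 7.21, 7.87 and 8.17 in NesGFP. The second tgTbr2GFP array was highest both for this list and for Slc17a6. Of the 8 markers, 6 were higher in the Tbr2 lines than in NesGFP and 3 lower in PomcGFP than in the Tbr2 lines. Between PomcGFP and NesGFP, where Slc17a6 differed, 0 of the 8 passed with limma (1 at an unadjusted p under the threshold), and their median difference was -0.04. Their part in the Slc17a6 result was not tested.

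Slc17a7, or VGLUT1, the main vesicular glutamate transporter of mature hippocampal neurons, read 9.21 and 8.64 on the PomcGFP arrays, 7.37, 7.99 and 7.58 on the kiTbr2GFP arrays, 8.58, 7.62 and 8.43 on the tgTbr2GFP arrays and 9.08, 8.33 and 8.23 on the NesGFP arrays. PomcGFP arrays lay above all Tbr2 arrays but overlapped NesGFP, and replicates of each line were spread. It passed in none of the 4 comparisons. The difference was 1.00 ± 0.29 between PomcGFP and the Tbr2 lines, with a 95% interval of 0.35 to 1.64 (adjusted p = 0.103), and -0.62 ± 0.25 between the Tbr2 lines and NesGFP (adjusted p = 0.0636). Alone, kiTbr2GFP was lower than NesGFP by 0.90 (adjusted p = 0.0264) and PomcGFP higher than kiTbr2GFP by 1.28 (adjusted p = 0.0499).

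The last comparison sets the Eomes knock-in beside the Eomes transgene. Sv2b was lower in kiTbr2GFP by 1.04, or 2.05-fold (adjusted p = 0.0124), Napb by 0.92 (adjusted p = 0.0293) and Erc2 by 0.65 (adjusted p = 0.0297). For each of these, every kiTbr2GFP array lay below every tgTbr2GFP array. The Sv2b call was lost when the first kiTbr2GFP or the third tgTbr2GFP array was left out (highest adjusted p = 0.0596), and those of Napb and Erc2 in 8 and 7 of 11 such cases. In kiTbr2GFP, mature neuron markers were lower at the median (-1.18, 3 of 10 passed) and dividing-cell markers higher (1.16, 5 of 7 passed). Astrocyte markers were lower at the median (-0.64, 2 of 10 passed). The part of these marker lists in the Sv2b, Napb and Erc2 differences was not tested.

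Marker lists moved with the other comparisons too. Between PomcGFP and the Tbr2 lines 8 of 10 mature neuron markers and 4 of 7 granule neuron markers passed as higher and 5 of 7 dividing-cell markers as lower. Their median differences were 1.51, 1.10 and -1.65. Of oligodendrocyte, microglial and endothelial markers, 2 of 9, 3 of 8 and 0 of 9 passed as higher. All of these markers had positive differences, with medians of 1.20, 0.49 and 0.42. Between the Tbr2 lines and NesGFP all 10 astrocyte, 9 oligodendrocyte, 6 oligodendrocyte precursor and 9 endothelial markers measured were lower, as were 3 of 6 hilar mossy cell markers. In the same comparison 4 of 7 dividing-cell markers were higher, 2 of 10 mature neuron markers were higher and 4 lower, 1 of 7 granule neuron markers was higher and 3 lower, and 1 of 9 GABAergic interneuron markers was higher and 2 lower. Between PomcGFP and NesGFP 8 of 10 mature neuron, 4 of 7 granule neuron and 4 of 8 microglial markers were higher, and 9 of 10 astrocyte, 9 of 9 endothelial, 6 of 6 oligodendrocyte precursor and 6 of 9 oligodendrocyte markers lower. Their part in the lower values of Sv2a, Syt11, Syt17 and Rab3a in the Tbr2 lines, and in the PomcGFP differences, was not tested. Without the first tgTbr2GFP array, 8 of the 41 vesicle genes were higher and 1 lower in PomcGFP than in the Tbr2 lines. Of all genes, 2.44% and 1.75% were. The genes were not all the same: Syt13 and Pclo lost their call, and Sv2a and Rims1 gained one. In the Tbr2 lines against NesGFP, 13 were higher and 9 lower without that array, among 19.6% and 27.7% of all genes.

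A wider list of release genes gave the setting for the 41. Of 35 further release genes measured, 7 were higher and 0 lower in PomcGFP than in the Tbr2 lines with limma, among 2.0% and 1.73% of all genes (15 and 0 at an unadjusted p under the threshold, among 6.80% and 6.46%), and their median difference was 0.28. Nsf, the ATPase that takes SNARE complexes apart, read 10.46 and 10.23 on the PomcGFP arrays, 8.07, 7.96 and 8.05 on the kiTbr2GFP arrays, 9.16, 8.62 and 8.99 on the tgTbr2GFP arrays and 9.77, 9.56 and 9.00 on the NesGFP arrays, and its difference was 1.87 ± 0.19 (adjusted p = 0.000359). Nsf was lowest in kiTbr2GFP and lower in the Tbr2 lines than in NesGFP by 0.97 (adjusted p = 0.000525). Syt10, a sensor for peptide-containing vesicles, and Ppfia2, the scaffold liprin-alpha-2, were higher in PomcGFP by 1.48 ± 0.21 (adjusted p = 0.00213) and 1.47 ± 0.23 (adjusted p = 0.00443).

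Between the Tbr2 lines and NesGFP 10 of the 35 were higher and 6 lower, where 19.8% and 29.1% of all genes were. Stxbp5l, a tomosyn that restrains SNARE assembly, had the largest difference, 2.18 ± 0.16 (adjusted p = 8.56e-07), followed by Syt14 at 2.06 ± 0.20 and Ppfia2 at 1.60 ± 0.20. Scamp5, a vesicle-cycle membrane protein, was lower by 0.97 and Napa, the widely expressed SNAP, by 0.75 (adjusted p = 1.43e-05 and 0.0059). Napa and its brain relative Napb thus passed in opposite directions in this comparison. Between PomcGFP and NesGFP 13 were higher and 3 lower, among 15.9% and 24.0% of all genes, with Ppfia2 at 3.06 ± 0.26 and Snap29, a SNARE used in many membrane traffic steps, at -0.99 ± 0.24. No gene of this list passed between the Tbr2 lines with limma, and 7 had an unadjusted p under the threshold, all lower in kiTbr2GFP.

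A list of genes that recycle and refill vesicles was read in the same way. Of 27 measured, 16 were lower and 1 higher in the Tbr2 lines than in NesGFP, among 29.1% and 19.8% of all genes, and their median difference was -0.39. Subunits and partners of the vesicular proton pump led: Atp6ap1 was lower by 1.60 (adjusted p = 2.64e-07) and Atp6v0d1 by 1.40 (adjusted p = 3.04e-07), followed by Cltb, a clathrin light chain, by 1.22 (adjusted p = 3.23e-05). These proteins also serve lysosomes and endosomes in most cells. Synj1, the phosphatase that uncoats endocytosed vesicles, was the 1 gene that was higher, by 0.44 ± 0.10 (adjusted p = 0.00338).

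In PomcGFP against the Tbr2 lines 6 of the 27 were higher and 0 lower with limma, among 2.0% and 1.73% of all genes (12 and 0 at an unadjusted p under the threshold, among 6.80% and 6.46%). Dnm1, the dynamin of nerve terminals, read 9.86 and 9.70 on the PomcGFP arrays, 8.53, 8.36 and 8.24 on the kiTbr2GFP arrays, 9.12, 9.00 and 9.13 on the tgTbr2GFP arrays and 9.22, 9.40 and 8.85 on the NesGFP arrays. It was higher in PomcGFP by 1.05 ± 0.14 (adjusted p = 0.00198) and lower in kiTbr2GFP than in tgTbr2GFP by 0.70 (adjusted p = 0.0447). Amph, which brings dynamin to the necks of forming vesicles, was higher by 0.84 ± 0.15 in PomcGFP (adjusted p = 0.0112) and lower by 0.94 in kiTbr2GFP than in tgTbr2GFP (adjusted p = 0.0152). Atp6v1g2, the neuronal G subunit of the proton pump, was higher in PomcGFP by 1.06 ± 0.16 (adjusted p = 0.0031). PomcGFP against NesGFP had 6 of the 27 higher and 8 lower, among 15.9% and 24.0% of all genes, with Synj1 at 1.00 ± 0.13 and Sh3gl2, or endophilin A1, at 0.79 ± 0.20.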

How the data were processed

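RNA of GFP-positive cells sorted from dentate gyrus was measured on 11 arrays of 4 reporter lines. The deposited values are log2 and, per the submitters' processing notes, were made by the authors with RMA in oligo, whose version and annotation build are not given in the sources used here. That the scale is log2 follows from RMA and from the range of the values. RMA usually quantile-normalises the probes, so differences are relative to other genes.

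Of 28858 probe sets, 21789 had a single symbol, 1621 several and 5448 none listed. A gene took its probe set with the highest mean, if above the array's 25th percentile on at least 2 arrays. The 11 arrays entered a single fit of 4 line means in limma 3.58.1 (R 4.3.3; 7 residual and 4.22 prior degrees of freedom), with Benjamini-Hochberg adjustment over 16527 genes. The procedure was tested on simulated data. All members are named, and of other lists the 3 genes with the largest called change in each direction. Reln was named after its values were seen. Members and lists were chosen with earlier results of these data known. Alternatives covered the filter, probe sets, scaling, prior, array weights, replicate block, samples fitted, single Tbr2 lines and single arrays. Promoters came from RefSeq on GRCm38.p6. Tables and figures used Python 3.11.15, pandas 2.3.3, numpy 2.4.6 and matplotlib 3.10.9.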

Additional observations from a re-analysis of the deposited data

Results flagged for a closer look

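Some differences between the lines that carry GFP for the same gene, Eomes, passed limma's test of that difference. Sv2b differed by -1.04 between kiTbr2GFP and tgTbr2GFP (adjusted p = 0.0124), Napb by -0.92 (adjusted p = 0.0293) and Erc2 by -0.65 (adjusted p = 0.0297), each lower on 3 of 3 kiTbr2GFP arrays than on any tgTbr2GFP array. No line had more than 3 arrays, so no test for outlying values within a line was run. Single arrays that stood apart were only described.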

How the results depend on the processing

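With 2 or 3 arrays a line, counts between PomcGFP and the Tbr2 lines depended on the settings. The 9 genes called became 18 with array weights, 15 with only the compared lines fitted and 2 against tgTbr2GFP alone. They became 4 to 12 when 1 array of a line other than PomcGFP was left out. Without either PomcGFP array fewer were called, as were fewer of all genes. The lone PomcGFP array was then assumed to vary like the other lines. The share of all genes called moved too, from 2.0% higher and 1.73% lower to 4.99% and 4.83% with array weights. It was 3.17% and 3.01% with only the compared lines fitted, and 0.545% and 0.823% against tgTbr2GFP alone. Leaving out an array of a line other than PomcGFP gave 1.43% to 2.6% higher and 1.25% to 2.28% lower. Between kiTbr2GFP and tgTbr2GFP, 0.436% of all genes were higher and 0.684% lower, which became 3.39% and 5.03% with array weights. A replicate block gave 0.399% and 0.49%. Leaving out an array of either line gave 0.182% to 0.339% higher and 0.169% to 0.714% lower. The 3 vesicle genes called between these lines became 9 with array weights, 1 with a replicate block, and 0 to 4 when 1 array was left out. They were 1 without either PomcGFP array, any kiTbr2GFP array, or the first or second tgTbr2GFP array, and 0 without the third. Between the Tbr2 lines and NesGFP, 20 to 23 vesicle genes were called without 1 array of a line other than PomcGFP (23 with all). Of all genes, 16.6% to 21.2% were then higher and 26.7% to 30% lower (19.8% and 29.1% with all arrays). Between PomcGFP and NesGFP, 18 to 22 vesicle genes were then called (19 with all). Of all genes, 14.1% to 18.1% were higher and 22.5% to 26.6% lower (15.9% and 24.0% with all arrays). Without either PomcGFP array, fewer vesicle genes and fewer of all genes were called in that comparison. Calls kept under every alternative numbered 1 of 9, 14 of 23, 13 of 19 and, between the Tbr2 reporters, 0 of 3.

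Unc13a changed direction with the probe sets read. Its difference was 0.15 (Tbr2 lines minus NesGFP) and 0.51 (PomcGFP minus NesGFP) with the mean of its probe sets, and 0.79 and 1.43 with the second one, an alternative chosen after seeing the data. Sv2b against NesGFP was 0.51 with tgTbr2GFP alone. The cause was not tested. Deviations of same-numbered arrays correlated at -0.11 to 0.26 over 15 pairs. The 3 pairs numbered 3 were all above 0.1 (0.13 to 0.26), as was 1 of the other 12. The main fit did not take the numbers as pairs. Whether same-numbered arrays share a source was not tested. The replicate block gave 6, 23 and 18 calls in the other comparisons. Of all genes, 1.49%, 21.5% and 18.7% were then higher and 1.57%, 29.5% and 24.4% lower.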
